A study of Mus musculus with 10 samples.

Results

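The epidermal growth factor (EGF) family was described in the mouse hippocampus after pilocarpine (PILO)-induced status epilepticus (SE), with and without levetiracetam (LEV). The members were 8 genes chosen by symbol from the 15900 genes of the deposited table. They were the ligands *Hbegf*, *Tgfa*, *Nrg1* and *Nrg3*, the receptors *Egfr*, *Erbb3* and *Erbb4*, and *Errfi1*, whose product inhibits these receptors. All 8 were listed, and all 8 had enough tags to be tested. Cap analysis of gene expression (CAGE), which counts the capped 5′ ends of transcripts, had been applied to whole hippocampi of 10 ICR mice aged 9 to 10 weeks, with 2 mice in each of 5 groups. The pre-SE mice were untreated according to the labels, and the methods state that control mice received saline in place of PILO. The mice of the other groups received methyl scopolamine and then PILO, SE was taken as 5 generalized convulsive seizures, and diazepam was given to end it. SE 6 h and SE 2 days mice were examined at those times without LEV. SE + LEV 6 h mice had received oral LEV 1 time and SE + LEV 2 days mice 5 times. The seizures were brought on by a drug that acts on the whole animal, and no group received LEV without SE.

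Ligands of the EGF family are made as membrane proteins and are cut from the cell surface by ADAM proteases. HB-EGF and TGF-α bind the EGF receptor, and HB-EGF also binds ERBB4, whereas neuregulins bind ERBB4 and only some of them also bind ERBB3. ERBB3 has little kinase activity and signals in pairs with other receptors. The receptors pass their signal through adaptors to the RAS and ERK kinases, whose target genes include inhibitors of the same route, such as the sprouty proteins and the phosphatases of the DUSP family. In the hippocampus, *Erbb4* is known for its expression in inhibitory interneurons, and *Erbb3* for that in cells of the oligodendrocyte lineage.

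The values are CPM, the tags of a gene relative to all tags counted on listed genes of the same library. From the steps between low values, the libraries were estimated to hold 10500000 to 51700000 tags (median 26650000), so that 3 tags were worth 0.058 to 0.285 CPM. All 8 members lay above that range in every library. CPM values of different genes were not compared with each other. Differences between groups are given as logFC, the difference of group means of log2(CPM + 0.1), with the standard error of the fit, written as error. They were tested with limma, two-sided, with Benjamini-Hochberg adjustment over 15851 genes, and a gene was called at an adjusted p of at most 0.05. The 7 markers of excitatory neurons, among them *Prox1* of dentate granule cells, were all listed above 0, with sums of 2523 to 6111 CPM. The libraries differed more in 5 listed markers of choroid plexus, whose sum ran from 8.88 to 4031 CPM and was highest in replicate 2 of pre-SE, replicate 2 of SE 6 h, replicate 1 of SE + LEV 6 h and replicate 1 of SE + LEV 2 days. Its part in the results below was not tested.

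*Hbegf* and *Errfi1* rose after SE, and no other member was called. At 6 h, 2 of the 8 members were called against pre-SE mice, both higher, where 2.96% of all genes tested were called. At 2 days, 1 of the 8 was called against pre-SE mice, again *Hbegf*, where 5.66% of all genes were called. Between the 2 times, 1 of the 8 was called, which was *Errfi1*, lower at 2 days than at 6 h, where 4.25% of all genes were called. The median logFC of the 8 members was 0.27 at 6 h and 0.03 at 2 days, against −0.13 and −0.03 for all genes tested. Both comparisons share the same 2 pre-SE mice. Median-of-ratios rescaling, which moved the median of all genes at 6 h by more than 0.1, gave the same 2 calls at 6 h, with a logFC of 2.62 for *Hbegf* and 3.28 for *Errfi1*.

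**Figure D1:**
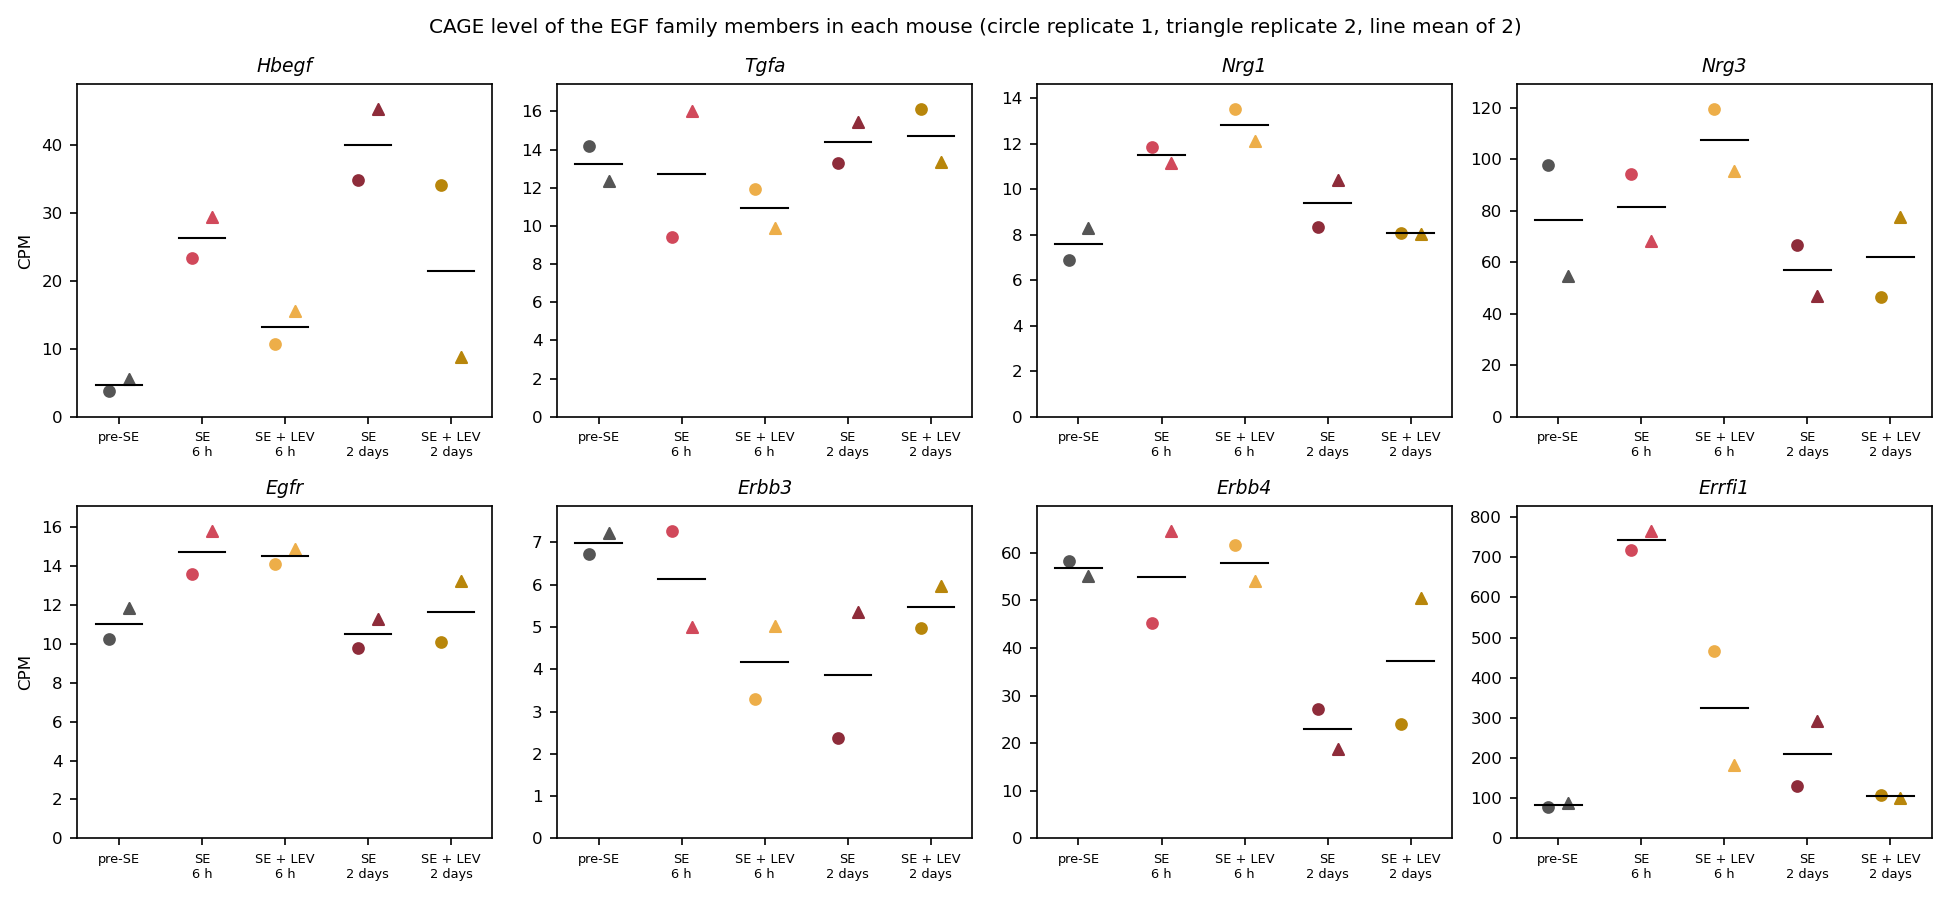
CPM of the 8 members (y axis, from 0, a separate scale for each gene) in the 5 groups (x axis). Each circle is the mouse of replicate 1, each triangle that of replicate 2, and each line the mean of the 2 mice. *Hbegf* and *Errfi1* of the SE mice lie above both pre-SE mice at 6 h and at 2 days, and *Erbb4* of the SE 2 days mice lies at 18.8 and 27.1 CPM, below both pre-SE mice.

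*Hbegf* encodes heparin-binding EGF-like growth factor. CPM values were 3.76 and 5.55 (pre-SE), 23.4 and 29.4 (SE 6 h), and 34.9 and 45.3 (SE 2 days). Both SE mice were above both pre-SE mice at each time, and both SE 2 days mice were above both SE 6 h mice. The rise over pre-SE was 5.64-fold at 6 h (logFC = 2.49, error 0.53, limma adjusted p = 0.035) and 8.53-fold at 2 days (logFC = 3.09, error 0.53, limma adjusted p = 0.0079). The difference between the 2 times did not pass the test (logFC = 0.60, 95% interval −0.58 to 1.78, limma adjusted p = 0.56). In whole tissue, a higher level per cell and more cells of an expressing type cannot be told apart.

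With a pseudocount of 1 the limma adjusted p of *Hbegf* at 6 h was 0.053, and without the mean-variance trend it was 0.058. The call at 6 h also ended without any 1 of the 4 mice compared, with a limma adjusted p of 0.19 and 0.095 without pre-SE replicates 1 and 2 and of 0.11 and 0.22 without SE 6 h replicates 1 and 2, while the logFC stayed between 2.22 and 2.77. The call at 2 days ended without pre-SE replicate 1 (limma adjusted p = 0.067) or SE 2 days replicate 2 (0.089). The group left with 1 mouse was assumed to vary like the others. Markers of glia were read beside it. The sum of 7 microglial markers was 371 to 438 CPM (pre-SE), 267 to 293 (SE 6 h) and 877 to 1045 (SE 2 days). That of 9 astrocyte markers was 2756 to 3331 CPM (pre-SE) and 3883 to 5260 (SE 2 days), and it was carried by *Gfap*, a gene known to rise in reactive astrocytes, at 246 and 230 CPM (pre-SE) and 2282 and 3642 (SE 2 days). Without *Gfap*, the sum of the other 8 was 3085 and 2526 CPM (pre-SE) and 1602 and 1618 (SE 2 days). Its largest part was *Slc1a2*, at 1547 and 1484 CPM (pre-SE) and 786 and 809 (SE 2 days). By contrast, *Aqp4* had 37.35 and 33.65 CPM (pre-SE) and 89.08 and 124.56 (SE 2 days). Likewise, *Aldh1l1* had 17.83 and 13.52 CPM (pre-SE) and 26.41 and 47.71 (SE 2 days). The paper reports that *Slc1a2* also fell after SE within sorted astrocytes. Of the 9, 4 had higher estimates at 2 days, 2 of them called, and the median logFC was −0.24. None of these markers was at 0 in any library, and their part in the level of *Hbegf* was not tested.

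With LEV, *Hbegf* lay between pre-SE and SE in all 4 mice. The SE + LEV 6 h mice had 10.8 and 15.6 CPM, both below both SE 6 h mice and both above both pre-SE mice. The SE + LEV 2 days mice had 34.2 and 8.83 CPM, so that replicate 1 was next to the lower SE 2 days mouse and replicate 2 was next to the pre-SE mice. Neither difference from SE alone passed the test. The logFC of LEV was −1.01 at 6 h (error 0.53, limma adjusted p = 1.0) and −1.19 at 2 days (error 0.53, limma adjusted p = 1.0), and the latter ran from −2.16 to −0.21 when 1 mouse was left out. Against pre-SE, the logFC was 1.48 in SE + LEV 6 h mice (limma adjusted p = 0.39) and 1.91 in SE + LEV 2 days mice (limma adjusted p = 0.11). Without replicate 2 of SE + LEV 2 days, the latter was 2.88 and passed the test (limma adjusted p = 0.003). The order of the group means was pre-SE (4.66 ± 1.27 CPM, SD, n = 2), SE + LEV 6 h (13.2 ± 3.39), SE + LEV 2 days (21.5 ± 18.0), SE 6 h (26.4 ± 4.25) and SE 2 days (40.1 ± 7.41). SE + LEV 2 days overlapped with SE + LEV 6 h and SE 6 h.

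No other ligand among the members passed the test. *Tgfa*, which encodes transforming growth factor α, had 9.43 to 16.1 CPM over the 10 mice, a ratio of 1.71, and its SE mice overlapped with the pre-SE mice at both times. Its logFC was −0.10 at 6 h (95% interval −0.80 to 0.60) and 0.12 at 2 days (−0.58 to 0.82). The mice with LEV had 11.96 and 9.87 CPM at 6 h and 16.1 and 13.4 CPM at 2 days, and they overlapped with the SE mice at both times. *Nrg3* encodes a neuregulin of neurons. It had 97.8 and 54.8 CPM (pre-SE), 94.3 and 68.2 (SE 6 h), and 66.9 and 46.8 (SE 2 days). The SE mice overlapped with the pre-SE mice at both times, with a logFC of 0.13 at 6 h (−0.65 to 0.92) and −0.39 at 2 days (−1.17 to 0.40). Both SE 2 days mice were below both SE 6 h mice, a difference that was not called (limma adjusted p = 0.44). With LEV it had 119 and 95.4 CPM at 6 h, both above both SE 6 h mice (logFC = 0.41, error 0.35, limma adjusted p = 1.0), and 46.5 and 77.6 CPM at 2 days.

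*Nrg1* encodes a neuregulin with several forms that differ in their first exons. CPM values were 6.90 and 8.30 (pre-SE), 11.8 and 11.2 (SE 6 h), 13.5 and 12.1 (SE + LEV 6 h), 8.35 and 10.4 (SE 2 days), and 8.07 and 8.05 (SE + LEV 2 days). All 4 mice examined at 6 h were above all 6 other mice, an order whose share over all genes was not counted. The logFC at 6 h was 0.60 without LEV (error 0.28, limma adjusted p = 0.30) and 0.75 with LEV (error 0.28, limma adjusted p = 0.41), and neither passed the test. At 2 days it was 0.30 without LEV (limma adjusted p = 0.62) and 0.09 with LEV (limma adjusted p = 0.97). The table gives 1 value per gene, so the annotated starts of *Nrg1*, which number 3 and are up to 90906 bases apart, were not told apart.

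**Figure D2:**
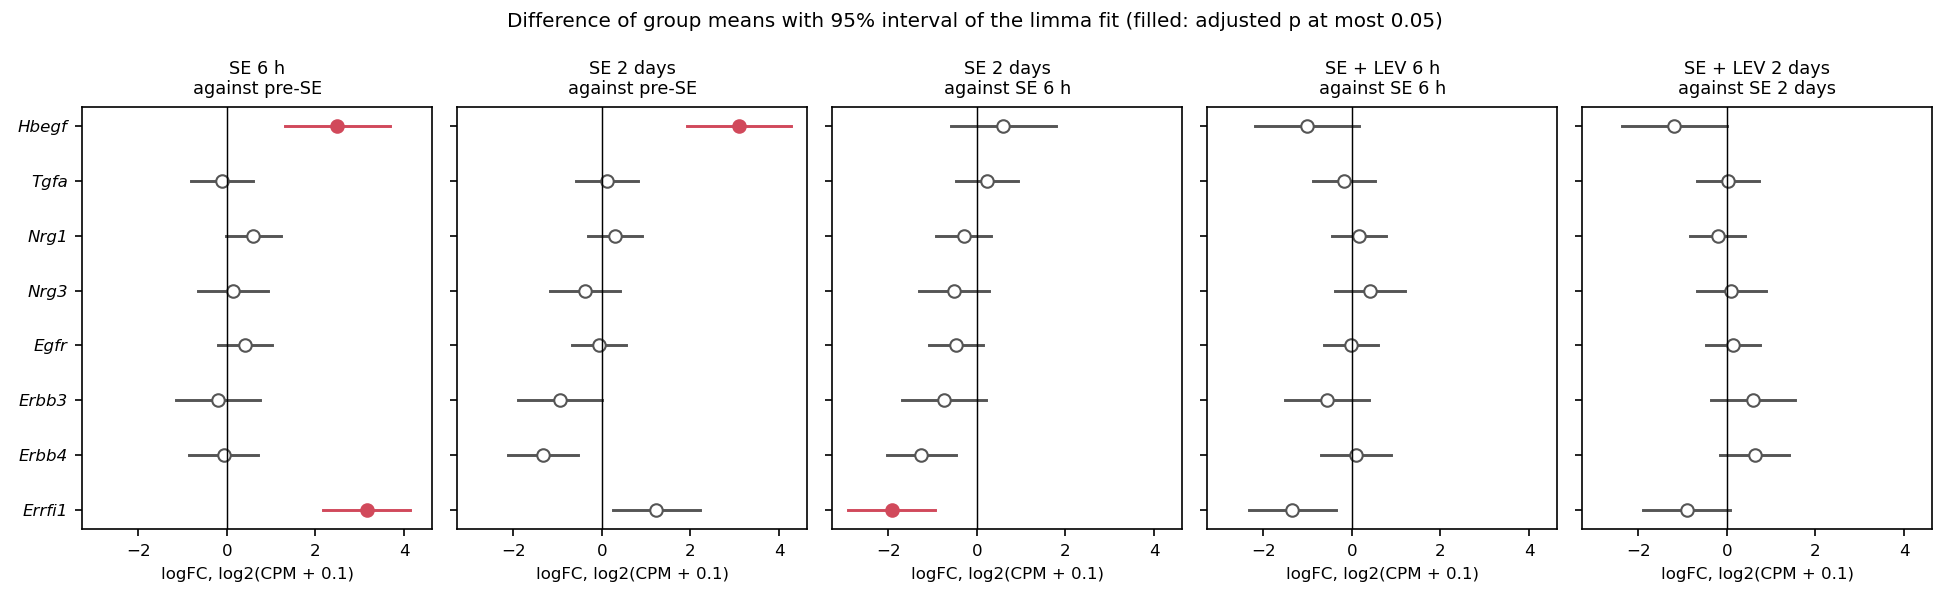
Difference of group means on the log2(CPM + 0.1) scale (x axis) for each member (y axis) in 5 comparisons. Points are logFC, bars are 95% intervals of the limma fit, and filled points have an adjusted p of at most 0.05. The filled points are *Hbegf* at 6 h and 2 days and *Errfi1* at 6 h, all to the right of 0, and *Errfi1* at 2 days against 6 h, at −1.93.

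Among the receptors, *Erbb4* differed most from pre-SE mice, at 2 days, and the difference was just outside the threshold. *Erbb4* encodes the neuregulin receptor that also binds HB-EGF. CPM values were 58.4 and 55.2 (pre-SE), 45.2 and 64.7 (SE 6 h), and 27.1 and 18.8 (SE 2 days). Both SE 2 days mice were below all 4 mice of the other 2 groups, whereas the SE 6 h mice lay on both sides of the pre-SE mice. The logFC at 2 days was −1.33 against pre-SE (error 0.35, unadjusted p = 0.0035, limma adjusted p = 0.057) and −1.26 against SE 6 h (error 0.35, limma adjusted p = 0.08), and it was −0.07 at 6 h against pre-SE (95% interval −0.85 to 0.71). In a fit of the pre-SE and SE 2 days mice only, the limma adjusted p at 2 days was 0.036, so that 2 members were called. Of 13 alternatives to the main fit, that was the only 1 to call *Erbb4* against pre-SE. Without the mean-variance trend the limma adjusted p was 0.089. With 1 mouse left out, the logFC ran from −1.59 to −1.06. In SE + LEV 2 days mice, *Erbb4* had 24.0 and 50.5 CPM, 1 mouse within the range of the SE 2 days mice and 1 near the pre-SE mice. The logFC of LEV at 2 days was 0.62 (error 0.35, limma adjusted p = 1.0). SE + LEV 6 h mice had 61.6 and 54.2 CPM.

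*Erbb3* encodes the neuregulin receptor with little kinase activity of its own. It had 6.73 and 7.23 CPM (pre-SE), 7.28 and 5.0 (SE 6 h), 3.29 and 5.03 (SE + LEV 6 h), 2.37 and 5.35 (SE 2 days), and 4.98 and 5.96 (SE + LEV 2 days). Of the 8 mice after SE, 7 were below both pre-SE mice, and the exception was replicate 1 of SE 6 h. The logFC at 2 days was −0.95 (error 0.43, limma adjusted p = 0.26), and without SE 2 days replicate 1 it was −0.38. *Egfr*, the receptor of HB-EGF and TGF-α, had 10.2 and 11.8 CPM (pre-SE), 13.6 and 15.8 (SE 6 h), 14.1 and 14.9 (SE + LEV 6 h), 9.79 and 11.3 (SE 2 days), and 10.1 and 13.2 (SE + LEV 2 days). As with *Nrg1*, all 4 mice at 6 h were above all 6 other mice, and the share of all genes with this order was not counted. The logFC of *Egfr* at 6 h was 0.41 without LEV (error 0.27, limma adjusted p = 0.46) and 0.39 with LEV (limma adjusted p = 0.67), and at 2 days it was −0.07 without LEV (95% interval −0.68 to 0.54).

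Markers of the cells known for these receptors were read beside them. The 9 markers of mature oligodendrocytes summed to 5293 and 5818 CPM (pre-SE), 2058 and 3227 (SE 2 days), and 3812 and 4986 (SE + LEV 2 days). The mean sum in SE 2 days mice was 0.476 times that in pre-SE mice. At 2 days 0 of the 9 markers were called by limma against pre-SE, 5 had an unadjusted p under 0.05, and their median logFC was −1.09, against −0.03 for all genes. Over all genes, 19.8% had an unadjusted p under 0.05 in that comparison. The 8 interneuron markers summed to 997 and 1211 CPM (pre-SE), 1014 and 2000 (SE 2 days), and 1054 and 923 (SE + LEV 2 days). The neuropeptide genes *Npy* and *Sst* made up most of that sum. *Npy* had 101 and 122 CPM (pre-SE) and 179 and 711 (SE 2 days), and *Sst* had 458 and 570 (pre-SE) and 449 and 801 (SE 2 days). The other 6 markers summed to 438 and 519 CPM (pre-SE), 385 and 488 (SE 2 days), and 338 and 355 (SE + LEV 2 days), so that SE 2 days overlapped with pre-SE. Of the 8, 0 were called by limma at 2 days, 1 (*Npy*, with a higher estimate) had an unadjusted p under 0.05, 3 had higher estimates, and the median logFC was −0.09. The 7 markers of excitatory neurons summed to 6111 and 5455 CPM (pre-SE) and 3520 and 2523 (SE 2 days). *Camk2a* was the largest part of that sum, at 3394 and 3647 CPM (pre-SE) and 1842 and 1127 (SE 2 days). *Slc17a7* had 1581 and 519 CPM (pre-SE) and 527 and 647 (SE 2 days), which overlap. Of the 7, 0 were called by limma at 2 days, 2 had an unadjusted p under 0.05, and the median logFC was −0.41. No marker of these lists was at 0 in any library, and their part in the levels of *Erbb3* and *Erbb4* was not tested.

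**Figure D3:**
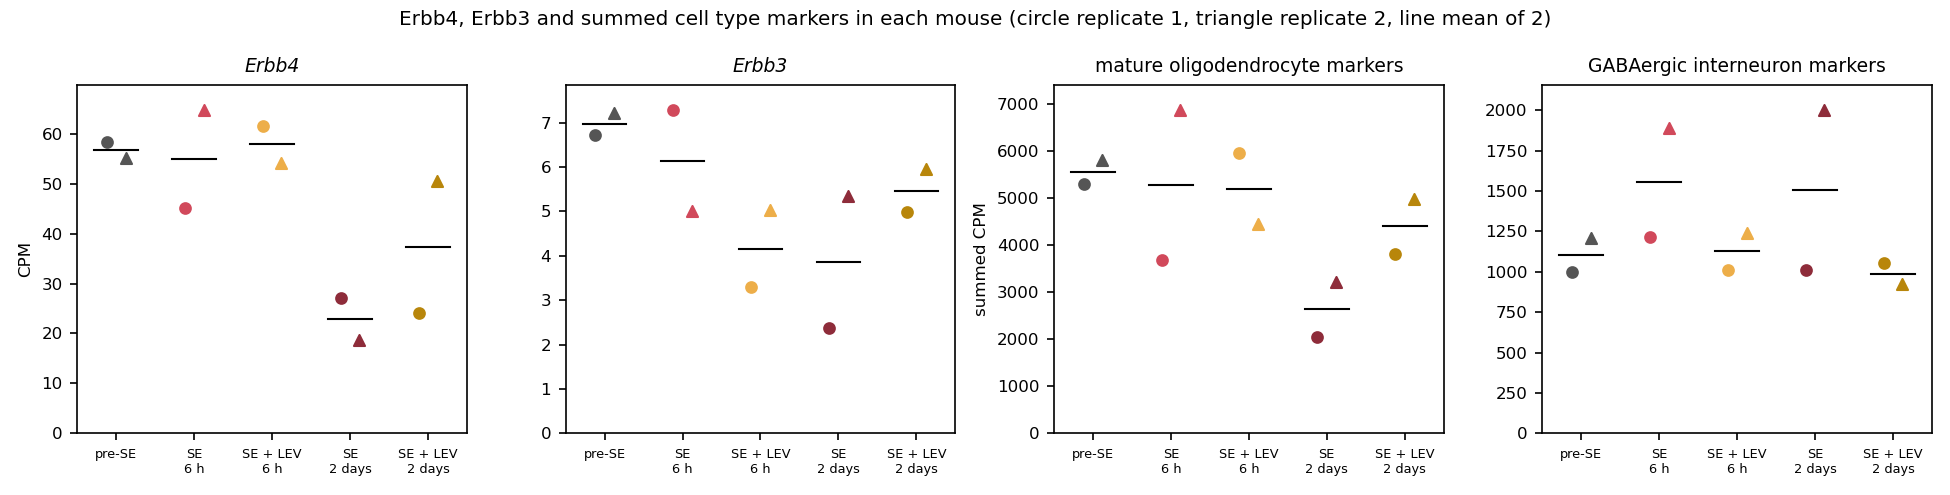
CPM of *Erbb4* and *Erbb3* and summed CPM of 9 mature oligodendrocyte and 8 interneuron markers (y axes, from 0) in the 5 groups (x axis). Circles are replicate 1, triangles replicate 2 and lines the mean of the 2 mice. *Erbb4* and the oligodendrocyte sum are below both pre-SE mice in both SE 2 days mice, whereas the interneuron sum is at 1014 and 2000 CPM, most of it *Npy* and *Sst*.

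*Errfi1* encodes MIG6, a cytoplasmic protein that binds the kinase domain of the EGF receptor and inhibits it. CPM values were 77.9 and 88.9 (pre-SE), 718 and 766 (SE 6 h), and 130 and 292 (SE 2 days), so that the 3 groups did not overlap. The rise at 6 h was 8.91-fold (logFC = 3.15, error 0.44, limma adjusted p = 0.0054). Without SE 6 h replicate 2, its limma adjusted p was 0.053 and its logFC 3.11. At 2 days the logFC against pre-SE was 1.23 (error 0.44, unadjusted p = 0.019, limma adjusted p = 0.15), which did not pass the test. *Errfi1* fell by 1.93 on the log2 scale from 6 h to 2 days (error 0.44, limma adjusted p = 0.039). That call ended without the mean-variance trend (limma adjusted p = 0.068) and without SE 6 h replicate 1 (0.15), SE 6 h replicate 2 (0.16) or SE 2 days replicate 1 (0.23).

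With LEV, *Errfi1* was at 467 and 183 CPM at 6 h and at 107 and 101 CPM at 2 days. Both LEV mice were below both SE mice and above both pre-SE mice at each time. The logFC of LEV was −1.34 at 6 h (error 0.44, unadjusted p = 0.012, limma adjusted p = 0.81) and −0.90 at 2 days (error 0.44, unadjusted p = 0.067, limma adjusted p = 1.0), and neither passed the test. Against pre-SE, the logFC was 1.81 in SE + LEV 6 h mice (limma adjusted p = 0.16) and 0.32 in SE + LEV 2 days mice (limma adjusted p = 0.91). The mean CPM of the LEV mice was 43.8% of that of the SE mice at 6 h and 49.3% at 2 days, and the corresponding values of *Hbegf* were 49.9% and 53.7%. The order of the *Errfi1* means was pre-SE (83.4 ± 7.77 CPM, SD, n = 2), SE + LEV 2 days (104 ± 4.46), SE 2 days (211 ± 115), SE + LEV 6 h (325 ± 201) and SE 6 h (742 ± 34.4). SE 2 days and SE + LEV 6 h overlapped.

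The start of *Errfi1* was looked at because CAGE tags mark starts of transcription and *Errfi1* had the largest logFC of the members at 6 h. RefSeq promoters (GRCm38.p6, 250 bases before to 50 after a start) were matched for 5 of the 8 members, *Tgfa*, *Egfr*, *Nrg3*, *Erbb4* and *Errfi1*, the last with 2 starts. They were searched on both strands for the AP-1 motif TGANTCA, the cAMP response element (CRE) TGACGTCA, the EGR motifs GCGTGGGCG and GCGGGGGCG, and the TATA box TATAAA, none of which overlapped in the hits. Of these motifs, the CRE and the TATA box were found at the downstream start of *Errfi1*, and none was found at its upstream start or in the promoters of the other 4 genes. *Hbegf*, the other called member, had no matched promoter. Whether the other called genes of the pathway lists hold these motifs was not looked at. *Areg*, the amphiregulin gene described below, is not a member and was the only other gene added to the search. It held the same pair of motifs as *Errfi1*. The last 100 bases before the start are shown for both, on the plus strand of mm9, to which each promoter matched at 1 position, with the CRE and the TATA box in capitals.
Errfi1, chr4:150229079-150229178: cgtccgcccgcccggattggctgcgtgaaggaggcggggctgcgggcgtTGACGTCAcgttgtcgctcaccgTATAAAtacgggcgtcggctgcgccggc
Areg, chr5:91568525-91568624: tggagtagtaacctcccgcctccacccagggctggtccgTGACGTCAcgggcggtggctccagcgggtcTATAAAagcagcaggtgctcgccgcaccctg
In *Errfi1* the CRE lay from −51 to −44 and the TATA box from −28 to −23 of the start, and in *Areg* they lay from −61 to −54 and from −31 to −26. Of 32851 promoters in the RefSeq table, 1.79% held the CRE, 13.6% the TATA box and 0.17% both. The shares were 7.81% for the AP-1 motif and 3.47% for the EGR motifs. A match describes these letters only, and which of the 2 *Errfi1* starts the tags came from could not be told from 1 value per gene.

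The other genes of the route were counted from fixed lists. Of 8 other ligand and receptor genes, 5 were listed (*Egf*, *Areg*, *Nrg2*, *Nrg4* and *Erbb2*), and *Areg* was called at both times. No other gene of the 5 was called against pre-SE, where the share called over all genes was 2.96% (6 h) and 5.66% (2 days). Half-way values of this list, its medians of logFC, were 0.19 (6 h, all genes −0.13) and −0.13 (2 days, all genes −0.03). *Areg* (ENSMUSG00000029378) encodes amphiregulin, another ligand of the EGF receptor. CPM values were 0.0 and 0.21 (pre-SE), 9.24 and 23.2 (SE 6 h), 0.47 and 0.19 (SE + LEV 6 h), 1.23 and 9.84 (SE 2 days), and 0.55 and 0.04 (SE + LEV 2 days). All 4 SE mice without LEV were above all 6 other mice, and how many of all genes had that order was not counted. The logFC against pre-SE was 6.39 at 6 h (error 1.02, limma adjusted p = 0.01) and 4.37 at 2 days (error 1.02, limma adjusted p = 0.035). The pre-SE mice held an estimated 0 and 11 tags, and the ratio of pooled CPM at 6 h had an exact 95% counting interval of 55.8 to 202.2, which leaves out the differences between mice. The logFC depended on the pseudocount, from 3.84 at a pseudocount of 1 to 8.29 at 0.01. The 6 h call ended without pre-SE replicate 1 (limma adjusted p = 0.079) or SE 6 h replicate 2 (0.1). The 2 days call ended without pre-SE replicate 1 (0.24), pre-SE replicate 2 (0.058) or SE 2 days replicate 2 (0.32), and with pseudocounts of 0.01 (0.051), 0.5 (0.057) and 1 (0.092). It also ended without the mean-variance trend (0.052) and in a fit of only the groups compared (0.052).

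*Areg* also had the largest logFC of these lists with LEV. It was −5.18 at 6 h (error 1.02, limma adjusted p = 0.19) and −3.59 at 2 days (error 1.02, limma adjusted p = 1.0). Replicate 2 of both LEV groups was below 3 tags, which were worth 0.285 CPM at 6 h and 0.123 CPM at 2 days. With pseudocounts of 0.01 and 1 the logFC was −5.56 and −3.57 at 6 h and −4.38 and −1.95 at 2 days. With 1 mouse left out, it ran from −5.84 to −4.52 at 6 h and from −5.04 to −2.14 at 2 days. Both LEV mice were below both SE mice at each time, and neither difference passed the test over all genes. *Erbb2*, which encodes the receptor that has no ligand of its own, had 1.07 and 1.74 CPM (pre-SE) and 2.67 and 3.20 (SE 2 days), with a logFC of 1.04 at 2 days (error 0.42, limma adjusted p = 0.20).

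Of 10 genes for the cutting of ligands from the membrane, 3 were called higher at 2 days, where 5.66% of all genes were called, and 6 had an unadjusted p under 0.05, against 19.8% of all genes. At 6 h 0 were called by limma, and 2 had an unadjusted p under 0.05, against 17.7% of all genes. The median logFC of the list was 0.94 at 2 days, against −0.03 for all genes. *Adam8*, a metalloprotease gene known from leukocytes, had 0.07 and 0.04 CPM (pre-SE), 2.02 and 3.36 (SE 6 h), and 7.63 and 14.6 (SE 2 days), with a logFC of 6.11 at 2 days (limma adjusted p = 0.012). The pre-SE values were about 2 tags in each library, and the ratio of pooled CPM at 2 days had an exact 95% counting interval of 85.3 to 810.3. *Rhbdf1* encodes iRHOM1, a partner in the transport of the protease ADAM17. It had 7.59 and 6.11 CPM (pre-SE) and 21.8 and 20.3 (SE 2 days) (logFC = 1.61, limma adjusted p = 0.018). *Adam12* had 7.17 and 7.25 CPM (pre-SE), 6.86 and 6.85 (SE 6 h), and 17.6 and 25.3 (SE 2 days) (logFC = 1.54, limma adjusted p = 0.041), and it was also called against SE 6 h mice (logFC = 1.61, limma adjusted p = 0.041). The latter call ended without any 1 of the 4 mice compared (limma adjusted p from 0.11 to 0.23) and with median-of-ratios rescaling (0.056). *Adam10* and *Adam17*, the main sheddases of the family, and *Bace1* were among the 7 not called. The calls of *Rhbdf1* and *Adam12* at 2 days ended without any 1 of the 4 mice compared (limma adjusted p from 0.073 to 0.12 and from 0.063 to 0.33), and that of *Adam8* without pre-SE replicate 1 (0.062), pre-SE replicate 2 (0.061) or SE 2 days replicate 2 (0.13). The sum of 4 listed markers of infiltrating myeloid cells was 5.08 to 5.83 CPM (pre-SE) and 36.2 to 70.1 CPM (SE 2 days). *Lyz2* made up most of it, at 5.14 and 3.38 CPM (pre-SE) and 30.1 and 63.2 (SE 2 days). *Plac8* had 0.1 and 0.1 CPM (pre-SE) and 5.05 and 2.24 (SE 2 days). *S100a8* and *S100a9* each had 0.55 CPM in SE 2 days replicate 1, between the 2 pre-SE mice. *Ccr2* and *Ly6c2* were not listed. The part of these markers in the level of *Adam8* was not tested.

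Genes known to be switched on by ERK were called at 6 h. Of 10 such genes, 3 were called higher at 6 h, against 2.96% of all genes, and 7 had an unadjusted p under 0.05, against 17.7% of all genes. The median logFC was 1.41, against −0.13 for all genes. At 2 days 0 were called by limma, 6 had an unadjusted p under 0.05, against 19.8% of all genes, and the median was 1.10. *Spry2*, a sprouty inhibitor of receptor signalling, had 71.0 and 38.8 CPM (pre-SE) and 386 and 262 (SE 6 h) (logFC = 2.60, limma adjusted p = 0.012). *Dusp4*, which encodes a phosphatase of ERK and related kinases, had 11.97 and 11.2 CPM (pre-SE) and 75.8 and 70.6 (SE 6 h) (logFC = 2.65, limma adjusted p = 0.032). *Dusp6*, which encodes a phosphatase of ERK, had 38.6 and 59.7 CPM (pre-SE) and 156 and 224 (SE 6 h) (logFC = 1.96, limma adjusted p = 0.045). *Dusp4* at 23.1 and 89.8 CPM and *Dusp6* at 90.4 and 223 CPM differed widely between the 2 SE 2 days mice, and without replicate 1 both were called at 2 days (logFC 2.95 and 2.21, limma adjusted p = 0.014 and 0.028). Without any 1 of the 4 mice compared, the calls of *Dusp4* and *Dusp6* at 6 h ended (limma adjusted p from 0.13 to 0.17 and from 0.093 to 0.28). That of *Spry2* ended without pre-SE replicate 2 (0.09), SE 6 h replicate 1 (0.084) or SE 6 h replicate 2 (0.057), and *Dusp6* was also not called at 6 h with pseudocounts of 0.5 (0.051) and 1 (0.057). Without the mean-variance trend, neither *Dusp4* (0.058) nor *Dusp6* (0.08) was called at 6 h.

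*Spry2* was also the 1 gene called at 6 h of 15 negative regulators of the receptors, where 2.96% of all genes were called. *Spry2* and *Spry4* are in both this list and that of ERK output. The median logFC of the 15 was 0.55 at 6 h and 0.26 at 2 days, against −0.13 and −0.03 for all genes. At 6 h 4 of them had an unadjusted p under 0.05, and at 2 days 0 were called by limma and 0 had an unadjusted p under 0.05, against 17.7% and 19.8% of all genes. Of the 24 listed genes of the adaptors and kinases between receptor and nucleus, 0 were called by limma in either comparison with pre-SE, where 1 at 6 h and 4 at 2 days had an unadjusted p under 0.05, against the same shares of all genes. Their median logFC was −0.11 at 6 h and −0.21 at 2 days.

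**Figure D4:**
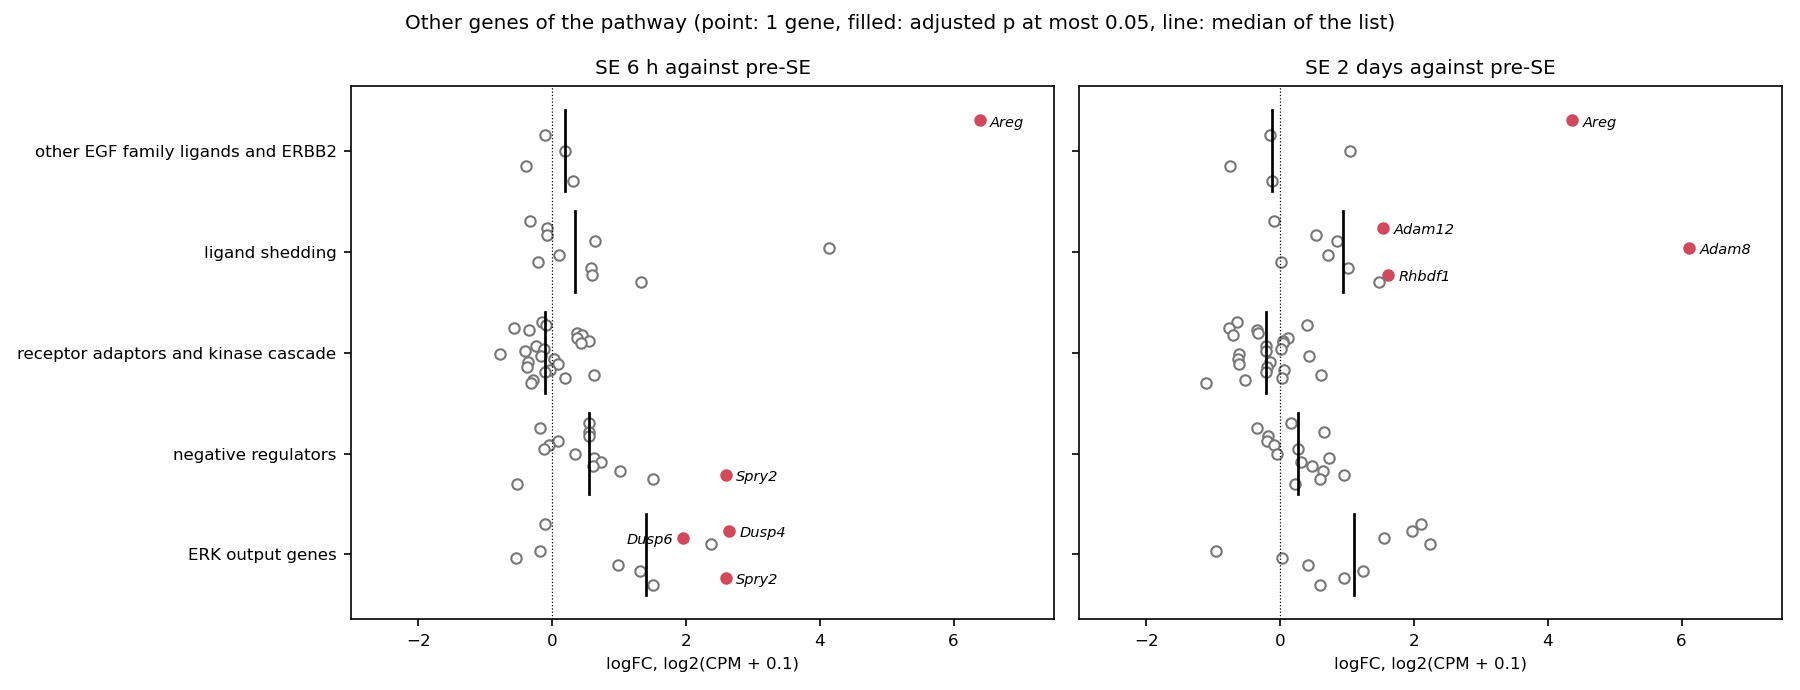
LogFC on the log2(CPM + 0.1) scale (x axis) of the genes of 5 lists of the EGF receptor route (y axis) in SE 6 h and SE 2 days mice against pre-SE mice. Each point is 1 gene, filled points have an adjusted p of at most 0.05, and lines are list medians. *Areg* is the filled point of the ligand list at both times, at 6.39 and 4.37, and no point is filled among the 24 adaptor and kinase genes.

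In the comparisons with LEV, no member passed the test. The comparisons of LEV with SE share the SE mice with those of SE with pre-SE. Against SE 6 h, 0 of the 8 members were called by limma in SE + LEV 6 h mice, 1 (*Errfi1*) had an unadjusted p under 0.05, against 4.58% of all genes, and 0.0126% of all genes were called. Against SE 2 days, 0 of the 8 were called by limma in SE + LEV 2 days mice, 1 (*Hbegf*, unadjusted p = 0.049) had an unadjusted p under 0.05, against 2.7% of all genes, and 0.0% of all genes were called. Against pre-SE, 0 of the 8 were called by limma in SE + LEV 6 h mice, 3 (*Hbegf*, *Errfi1* and *Nrg1*) had an unadjusted p under 0.05, against 9.38% of all genes, and 0.322% of all genes were called. In SE + LEV 2 days mice, 0 of the 8 were called by limma against pre-SE, 1 (*Hbegf*) had an unadjusted p under 0.05, against 10.8% of all genes, and 2.85% of all genes were called. For the difference of the LEV effect between the 2 times, 0 of the 8 were called by limma, 0 had an unadjusted p under 0.05, and 0.0% of all genes were called.

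The 10 genes of ERK output had a median logFC of −0.70 with LEV at 6 h and −0.75 at 2 days, against 0.04 for all genes at both times. None was called by limma in either comparison, and 2 had an unadjusted p under 0.05 in each, against 4.58% of all genes at 6 h and 2.7% at 2 days. *Dusp6* was among them both times, with 111 and 63.2 CPM (SE + LEV 6 h) (logFC = −1.16, limma adjusted p = 0.96) and 78.6 and 54.7 CPM (SE + LEV 2 days) (logFC = −1.11, limma adjusted p = 1.0). Both LEV mice were below both SE mice at each time. With 1 mouse left out, the logFC of *Dusp6* ran from −1.57 to −0.76 at 6 h and from −1.76 to −0.46 at 2 days. The SE 2 days mice differed widely in several of the 10 genes, such as *Dusp4* (23.1 and 89.8 CPM) and *Ccnd1* (30.2 and 78.7 CPM). How far the median at 2 days rests on replicate 2 was not tested.

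Genes whose values over the 10 mice ran closest to those of the called members were found by the root mean square difference of log2(CPM + 0.1) after centring each gene on its mean, among 14219 genes. For *Hbegf* these were *Col12a1* (0.341), a collagen gene, *Sbno2* (0.35) and *Tes* (0.351), where the median gene had 1.23. *Sbno2* had 12.1 and 12.1 CPM (pre-SE), 75.6 and 70.5 (SE 2 days), and 83.5 and 20.4 (SE + LEV 2 days). These genes were chosen for their likeness over the same 10 mice. A split between the 2 LEV mice like that of *Hbegf* therefore follows from the choice. *Tes* overlaps *Gm4876* on the other strand, and without strand in the counting their tags would be mixed. For *Errfi1* they were *Gm12263* (0.206), an annotated pseudogene, *Mir1938* (0.221) and *Ifrd1* (0.222), where the median gene had 1.31. *Ifrd1* had 81.8 and 56.2 CPM (pre-SE) and 451 and 581 (SE 6 h). *Mir1938* lies within *Ifrd1* on the same strand and had nearly the same values, so its tags could not be told from those of *Ifrd1*.

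The members are protein-coding genes of the mm9 annotation used here. *Hbegf* (ENSMUSG00000024486) lies on the minus strand of chromosome 18 from 36664583 to 36675459, *Tgfa* (ENSMUSG00000029999) on the plus strand of chromosome 6 from 86145420 to 86225151, and *Nrg1* (ENSMUSG00000062991) on the minus strand of chromosome 8 from 32928500 to 33119581. *Nrg3* (ENSMUSG00000041014) lies on the minus strand of chromosome 14 from 39182138 to 40286376 and *Egfr* (ENSMUSG00000020122) on the plus strand of chromosome 11 from 16652206 to 16818161. *Erbb3* (ENSMUSG00000018166) lies on the minus strand of chromosome 10 from 128004579 to 128026708, *Erbb4* (ENSMUSG00000062209) on the minus strand of chromosome 1 from 68078760 to 69154633, and *Errfi1* (ENSMUSG00000028967) on the plus strand of chromosome 4 from 150228028 to 150243001. *Egfr*, *Nrg1*, *Nrg3* and *Errfi1* overlap annotated genes on the other strand, among them *1700045H11Rik*, which covers the upstream start of *Errfi1*, and *Erbb4* overlaps *Gm15670*, *U6atac* and *Gm16076* on its own strand. None of these overlapping genes had a row in the table used here, and tags of such a pair cannot be told apart where counting did not use strand. *Hbegf*, *Tgfa* and *Erbb3* overlap no other annotated gene.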

How the data were processed

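The 10 CAGE libraries, each of the whole hippocampus of 1 mouse, were put into 5 groups of 2 by their labels. The authors mapped tags to mm9 with BWA 0.7.17 and the tags left unmapped with HISAT2 2.0.5, grouped tags into clusters with the RECLU pipeline, kept clusters of at least 0.1 CPM, and deposited CPM values for each gene and library. How clusters were summed to genes, and whether strand was used, is not given in the sources used here. All 10 columns of values were used, and 0 were left out.

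Library totals were estimated from the spacing of low CPM values, of which 97.5 to 100.0% were whole multiples of 1 tag within the rounding of the values. Intervals from tags cover counting error only. The test was limma 3.58.1 (R 4.3.3). It was fitted once to log2(CPM + 0.1) of the 10 libraries, with a mean for each of the 5 groups and a mean-variance trend. The 15851 genes that reached 0.1 CPM in 2 or more libraries entered it. On simulated data in which 200 of 15809 genes were changed between SE 6 h and pre-SE, 161 were called, with 13 false calls. The shares called were 100% at a logFC of 3, 97% at 2 and 43.9% at 1. Each simulated gene had the typical spread of genes at its level, and only genes with a mean of at least 1 CPM were changed. Real genes differ in spread, so these shares may be too high for the data. *Hbegf* in SE + LEV 2 days mice, for example, had a logFC of 1.91 against pre-SE and was not called.

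All members were named, as were called genes of the pathway lists and, for each called member, the 3 genes nearest to it. *Erbb2*, *Gfap*, *Npy*, *Sst*, *Dusp6* with LEV and further genes of the lists were named after their values were seen. The members, lists and motifs were chosen with earlier results of these data known. Alternatives were pseudocounts of 0.01, 0.5 and 1, no filter, a filter of 1 CPM, median-of-ratios rescaling, no trend, replicate number as a block, only the groups compared, and each mouse left out in turn. Replicates are separate mice. Python 3.11.15 was used for tables (pandas 2.3.3), intervals (SciPy 1.17.1) and figures (matplotlib 3.10.9).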

Additional observations from a re-analysis of the deposited data

Results flagged for a closer look

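The estimates of the LEV effect on *Nrg1* had opposite signs at the 2 times, and neither passed the test. At 6 h both SE + LEV mice were above both SE mice (logFC 0.155, error 0.28, limma unadjusted p = 0.59). At 2 days both were below (logFC −0.208, error 0.28, limma unadjusted p = 0.47). Both estimates were smaller than their error, and the share of all genes with such a pattern was not counted. The difference between the 2 effects did not pass the test (logFC −0.36, error 0.39, unadjusted p = 0.38, limma adjusted p = 1.0), and its 95% interval ran from −1.23 to 0.51.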

How the results depend on the processing

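Of the members called at 6 h against pre-SE, 2 became 1 with a pseudocount of 1, with the replicate block and without the trend, and leaving out 1 mouse gave 0 to 1. Of 1 called at 2 days against pre-SE, a fit of only the groups compared gave 2, and leaving out 1 mouse gave 0 to 1. Of 1 called at 2 days against 6 h, the block and the fit without the trend gave 0, and leaving out 1 mouse gave 0 to 1. In SE + LEV 2 days against pre-SE, 0 became 1 with the crossed block described below, and 0 to 1 without 1 mouse. The counts of members called in the other comparisons did not change. Of the logFC of named genes under alternatives, 600 kept their direction and side of the threshold, 61 lost and 5 gained a call, and 11 changed sign, all of genes not called in that comparison.

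The changes of sign were *Tgfa* (0.023) and *Erbb4* (0.058) at 6 h with median-of-ratios rescaling and, with 1 mouse left out, *Tgfa* (−0.48 to 0.28), *Nrg3* (−0.28 to 0.55), *Erbb3* (−0.47 to 0.061) and *Erbb4* (−0.33 to 0.19) at 6 h, and *Nrg3* (−0.80 to 0.031) and *Egfr* (−0.17 to 0.036) at 2 days, and *Nrg1* (−0.042 to 0.221) in SE + LEV 2 days against pre-SE. The causes were not tested.

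Replicate numbers were shared by different mice. Across genes, deviations from the group means correlated between mice of the same number with 0.34 between SE 6 h and pre-SE, 0.06 between SE 2 days and pre-SE, −0.18 between SE + LEV 2 days and SE 2 days, and −0.44 between SE + LEV 2 days and pre-SE. With the block, the limma adjusted p was 0.06 for *Hbegf* at 6 h and 0.062 for *Errfi1* at 2 days against 6 h. It also ended the calls of *Dusp4* (0.055) and *Dusp6* (0.063) at 6 h, of *Areg* (0.052) and *Adam12* (0.056) at 2 days, and of *Adam12* at 2 days against 6 h (0.058). A block with the numbers of SE + LEV 2 days crossed, added after the data were seen, called 1 member against pre-SE.

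Count tests on recovered tags, planned for the case that tags could be recovered, were not run. The values are rounded to 2 decimals, and 1 tag was worth 0.0193 to 0.0949 CPM, so that many values lie within rounding of a whole multiple of 1 tag whatever they are, and tag numbers and the intervals from them are estimates. With 2 mice in a group, a change of 1 on the log2 scale was often missed on simulated data, so that the absence of a call says little about small changes. Leaving out 1 mouse cut the number of genes called from 469 to between 111 and 194 at 6 h and from 897 to between 249 and 793 at 2 days.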
